A study of Mus musculus with 6 samples.

Results

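Porcn, Notum, Rnf43, Dvl1, Axin2, Tle3 and Ephb2 were examined as 7 genes that act in Wnt release, feedback, signal transduction and target expression. They were taken by symbol from a table of 11164 mouse genes, and all 7 had a row and passed the filter on low values (a mean of at least 1 RPKM, that is, reads per kilobase of transcript, scaled to library size). RNA came from colonies of sorted pancreatic cells of adult C57Bl/6 mice 2 to 4 months old, in a series about a Glis3, CD133 and Wnt axis in progenitor-like cells that renew themselves. The sort kept cells with high CD133 (the membrane glycoprotein encoded by Prom1) and low CD71. All groups were grown for 3 weeks in semi-solid medium with Matrigel, serum, conditioned medium, nicotinamide, exendin-4, activin B and RSPO1, and all carried a lentivirus under puromycin selection. The shControl group held 1 shRNA with no mammalian target, and the shGlis3 and shCD133 groups each held a pool of 5 shRNA clones, so pool size also differs between control and knockdown colonies. Each group had 2 libraries, numbered 1 and 3.

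In Wnt signalling, a lipid-modified ligand binds a Frizzled receptor and an Lrp coreceptor, Dishevelled is recruited, and beta-catenin escapes destruction and enters the nucleus, where it displaces corepressors from TCF factors. Several target genes then act back on the pathway, by cleaving the ligand's lipid (Notum), by removing Frizzled from the surface (Rnf43) or by rebuilding the destruction complex (Axin2). R-spondins such as RSPO1 engage Lgr receptors and draw Rnf43 and its paralog Znrf3 away from Frizzled, and RSPO1 is a standard addition to cultures of epithelial progenitors of gut and pancreas.

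The estimated depth, from the steps between low values, lay between 25.8 and 29.2 M reads per library. With this depth and the shortest basic transcript of each gene, every one of the 7 genes had at least an estimated 624 reads in each library. That corresponds to a counting error (coefficient of variation) of at most 4.00%, which covers counting error only. Each shRNA pool lowered its target: Glis3 stood at 26.05 and 24.22 RPKM in control colonies and 13.31 and 11.96 in the Glis3 knockdown, and Prom1 at 191 and 203 RPKM in control colonies and 88.0 and 96.0 in the CD133 knockdown. Of 12 ductal markers 11 were in the table, among them Krt19, Krt8, Epcam and Sox9. The table held 1 of 12 acinar, 0 of 10 mesenchymal, 0 of 8 endothelial, 2 of 10 immune, 1 of 8 Schwann and 8 of 12 endocrine markers. The acinar marker Cela1 lay between 0.49 and 1.06 RPKM, and the immune markers Cd68 and Cd74 together between 6.08 and 7.71. The Schwann marker Mbp lay between 9.75 and 11.41 RPKM. No label states a separate animal or culture for each library, and a p-value here reflects only how far these libraries spread, which may be technical. In bulk RNA, fewer cells of a type and less RNA per cell cannot be told apart.

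In the Glis3 knockdown, Ephb2 and Rnf43 rose and Tle3 fell relative to control, and Axin2, Notum, Porcn and Dvl1 did not pass the test. In the CD133 knockdown, Porcn, Notum, Rnf43, Axin2 and Dvl1 rose, and Ephb2 and Tle3 did not pass. A gene passed at a limma p under 0.05 after Benjamini-Hochberg adjustment over the 10829 genes tested, on the log2(RPKM + 1) scale. By this rule 3 of the 7 genes passed in the Glis3 knockdown (42.9%), where 12.9% of all genes did (8.39% higher and 4.53% lower). The CD133 knockdown had 5 of the 7 past it (71.4%), all higher, where 11.8% of all genes did (8.16% higher and 3.64% lower). With median centring of the log2 values the background split was 576 genes higher and 712 lower in place of 909 and 491 for the Glis3 knockdown, and 559 and 612 in place of 884 and 394 for the CD133 knockdown. With quantile normalization it was 641 and 621, and 547 and 538. The 7 genes were chosen with earlier results of these data known, and both comparisons use the same control libraries, so these counts are a description. Left out in turn, single libraries gave between 0 and 5 passing genes in each comparison with control, and 0 without control library 1 or control library 3 in both.

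**Figure D1:**
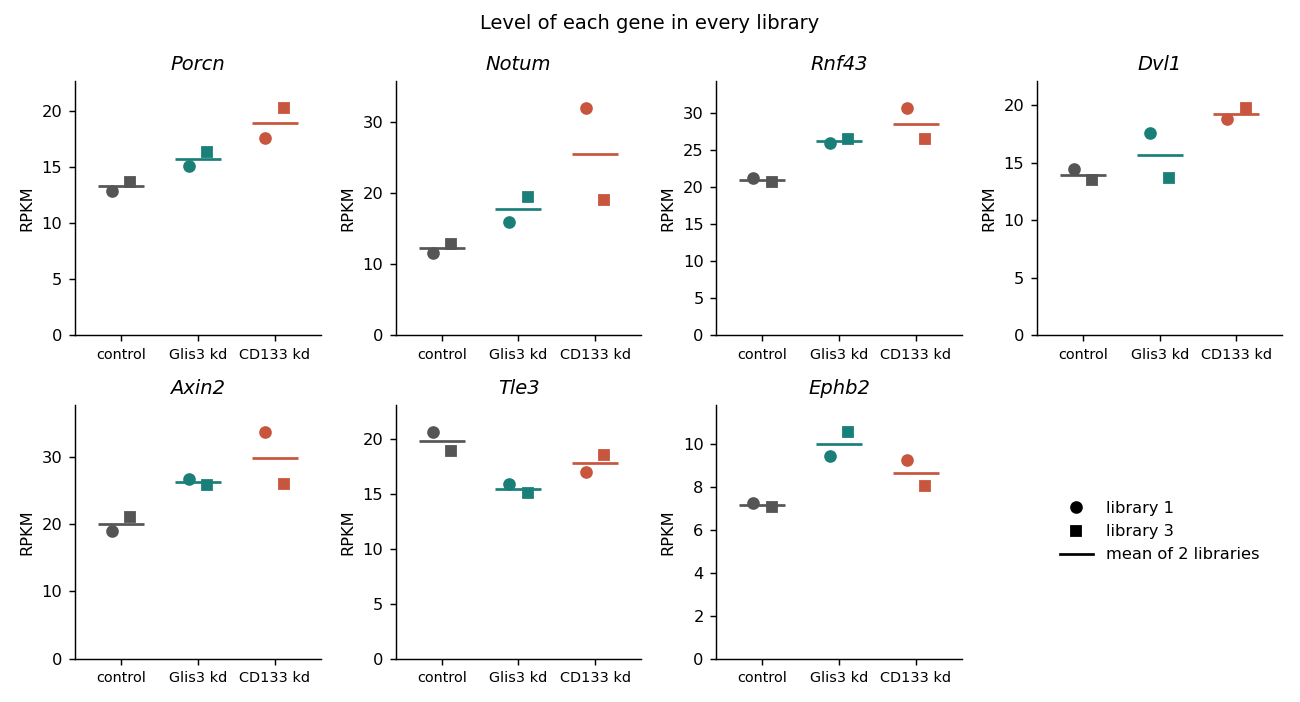
RPKM of the 7 genes in the 6 libraries (circle, library 1; square, library 3; line, mean of the 2 libraries; kd, knockdown). Both CD133 knockdown libraries lie above both control libraries for 6 genes and below them for Tle3, and Notum has its highest value, 31.93 RPKM, in CD133 knockdown library 1.

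Before any fold change, the levels themselves had an order. RPKM is scaled by length, so levels of different genes can be set side by side. In control colonies Rnf43, Axin2 and Tle3 were highest, between 18.92 and 21.20 RPKM in both libraries, and the ranges of neighbours among these 3 overlapped. Dvl1 (14.0 RPKM) and Porcn (13.3 RPKM) followed and overlapped each other, then Notum (12.2 RPKM), and Ephb2 was lowest (7.18 RPKM), each of the last 2 below its neighbour in both libraries. These control levels placed Rnf43 at the 75.7th percentile of the table and Ephb2 at the 41.4th. Tle3, among the highest in control, was in the sixth place in both knockdowns, at 15.4 RPKM in the Glis3 knockdown, where it overlapped Dvl1, and 17.7 RPKM in the CD133 knockdown, where it overlapped Porcn. Axin2 and Rnf43 had the highest means in both knockdowns and overlapped each other. In the CD133 knockdown the range of Notum (18.98 to 31.93 RPKM) overlapped those of both. Ephb2 stayed lowest in each group with no overlap with the next gene.

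Porcn encodes the acyltransferase of the endoplasmic reticulum that attaches palmitoleate to Wnt ligands, a step they need for release and receptor binding. The gene (ENSMUSG00000031169.13) lies on the minus strand of chromosome X, bases 8193848 to 8206525 (GRCm38, the assembly of mm10). Porcn stood at 12.87 and 13.70 RPKM in control libraries 1 and 3, at 15.13 and 16.39 in the Glis3 knockdown and at 17.63 and 20.27 in the CD133 knockdown. The groups did not overlap: both CD133 knockdown libraries were highest, both Glis3 knockdown libraries intermediate and both controls lowest. In the CD133 knockdown Porcn rose to 143% of control (log2 fold change 0.48, SE 0.080, 95% confidence interval 0.29 to 0.67, limma adjusted p = 0.0208). Glis3 knockdown colonies had 119% of the control level, a difference of 0.23 (interval 0.04 to 0.42, adjusted p = 0.109). The CD133 call was lost without either control library and without either CD133 knockdown library, with values from 0.38 to 0.57.

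None of the other 12 genes of Wnt secretion that were tested passed in either comparison. That list holds the cargo receptor Wls, p24 (Tmed) trafficking proteins and retromer subunits, and its median log2 fold change without Porcn was 0.02 in the Glis3 knockdown and -0.0009 in the CD133 knockdown, beside 0.04 for all genes in each. Wls, the carrier that binds the acylated ligand, had 25.28 and 26.73 RPKM in control, 25.66 and 23.92 in the Glis3 knockdown, and 24.98 and 24.96 in the CD133 knockdown (log2 fold change -0.07 and -0.06, adjusted p = 0.477 and 0.562). Tmed9 had the smallest p in the Glis3 knockdown, at 0.19 (adjusted p = 0.0769).

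Notum encodes a secreted carboxylesterase that removes the palmitoleate which Porcn adds, and so inactivates Wnt ligands outside the cell. The gene (ENSMUSG00000042988.10) lies on the minus strand of chromosome 11, bases 120653788 to 120661175. Notum stood at 11.59 and 12.83 RPKM in control, 15.90 and 19.46 in the Glis3 knockdown, and 31.93 and 18.98 in the CD133 knockdown. All knockdown libraries lay above both controls, and CD133 knockdown library 1 stood apart from the other 5 libraries. In the CD133 knockdown Notum rose to 208% of control (log2 fold change 0.96, SE 0.22, interval 0.44 to 1.48, limma adjusted p = 0.0390), and 0.397% of all genes tested had a difference as high. Glis3 knockdown colonies had 145% of the control level, a difference of 0.49 (interval -0.03 to 1.02, adjusted p = 0.183). Without CD133 knockdown library 1 the CD133 value was 0.60 (adjusted p = 0.113), without library 3 it was 1.32 (adjusted p = 0.0164), and without control library 1 or 3 it was 0.89 and 1.03 with no call. Quantile normalization also ended the call (0.91, adjusted p = 0.0525). With only the Glis3 knockdown and control in the fit, Notum passed in the Glis3 knockdown (adjusted p = 0.0433), as it did without either CD133 knockdown library.

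The spread of Notum between the 2 CD133 knockdown libraries was unusual for that group. Its ratio of (RPKM + 1) was 1.65, beside a median of 1.05 over all genes tested, and 0.342% of genes had a ratio as large. Axin2 differed between the same libraries in the same direction, and 2.51% of genes had a ratio as large as its own. For the control libraries the ratio of Notum was 1.10, and 27.7% of genes had one as large. Exons of Notum share 708 bases with Notumos and 210 with Myadml2os on the opposite strand, and although the library kit was stranded, the use of strand in counting is not stated, so a contribution of antisense reads was not tested. Of the 3 other Wnt inhibitors in the table that were tested besides Igfbp4, namely Dkk2, Sfrp1 and Kremen1, none passed in either comparison. The inhibitor genes Apcdd1 and Shisa2 were under the filter on low values and not tested. Apcdd1 was at 0.48 and 0.43 RPKM in control, 1.44 and 2.01 in the Glis3 knockdown, and 0.40 and 0.55 in the CD133 knockdown. Shisa2 was at 0.69 and 0.88, 0.94 and 1.18, and 0.84 and 1.05 RPKM. Igfbp4, an insulin-like growth factor binding protein that also antagonises Wnt receptors, was lower in the Glis3 knockdown, at a mean of 0.96 RPKM against 2.49 in control (-0.82, adjusted p = 0.0166).

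Rnf43 encodes a transmembrane ubiquitin ligase that marks Frizzled receptors for removal and is itself a Wnt target in the intestine. The gene (ENSMUSG00000034177.15) lies on the plus strand of chromosome 11, bases 87662722 to 87735539. Rnf43 stood at 21.20 and 20.64 RPKM in control, 25.88 and 26.49 in the Glis3 knockdown, and 30.63 and 26.42 in the CD133 knockdown. Its 4 knockdown libraries all lay above both controls, and the knockdowns overlapped each other. Rnf43 rose to 125% of control in the Glis3 knockdown (log2 fold change 0.31, SE 0.075, interval 0.13 to 0.49, limma adjusted p = 0.0427) and to 136% in the CD133 knockdown (log2 fold change 0.43, SE 0.075, interval 0.25 to 0.60, adjusted p = 0.0216). It was the 1 gene of the 7 that passed in both comparisons. The Glis3 call was kept only without either CD133 knockdown library and lost without each of the other 4 (0.29 to 0.33), and it was also lost with median centring (adjusted p = 0.0821), with quantile normalization (0.0584) and with no variance trend (0.0540). The CD133 call was lost without control library 1 (0.44), control library 3 (0.41) and CD133 knockdown library 1 (0.32).

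Znrf3, the paralog of Rnf43 with the same activity, did not follow it. Znrf3 stood at 11.63 and 10.74 RPKM in control, 9.93 and 10.68 in the Glis3 knockdown, and 11.20 and 10.65 in the CD133 knockdown, with log2 fold changes of -0.11 (adjusted p = 0.314) and -0.03 (adjusted p = 0.795). Rnf43 therefore made up 64.6% and 65.8% of the summed RPKM of both ligases in control, 72.3% and 71.3% in the Glis3 knockdown, and 73.2% and 71.3% in the CD133 knockdown. Its share was higher in each knockdown library than in each control library. The R-spondin receptor genes Lgr4 and Lgr5 did not pass in either comparison: Lgr4 was at 20.4 RPKM in control, 21.4 in the Glis3 knockdown and 24.9 in the CD133 knockdown, and Lgr5, a stem cell marker of several epithelia, at 9.58, 8.41 and 7.73 RPKM.

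**Figure D2:**
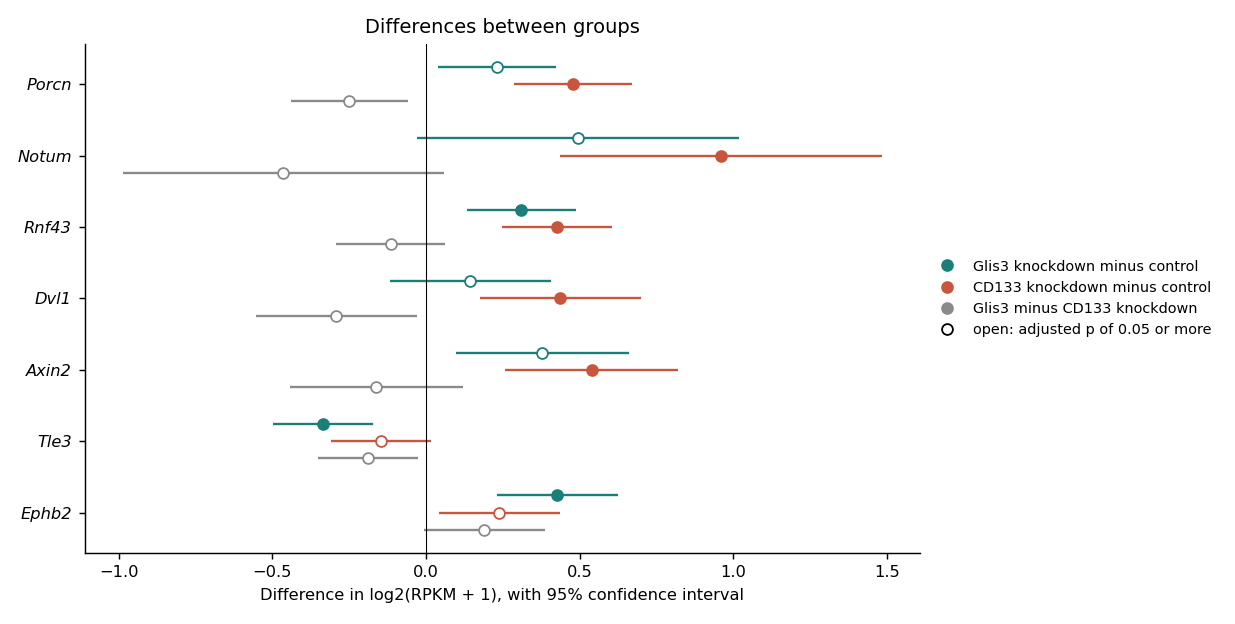
Difference of each gene between groups on the log2(RPKM + 1) scale from the limma fit, with 95% confidence intervals; filled points passed at an adjusted p under 0.05. In the CD133 knockdown Notum has the highest value (0.96) and the widest interval (0.44 to 1.48), and no gene passed between the knockdowns.

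Dvl1 encodes a Dishevelled protein, the cytoplasmic scaffold that carries the signal from Frizzled to the destruction complex. The gene (ENSMUSG00000029071.16) lies on the plus strand of chromosome 4, bases 155847402 to 155859303. Dvl1 stood at 14.48 and 13.44 RPKM in control, 17.58 and 13.68 in the Glis3 knockdown, and 18.75 and 19.72 in the CD133 knockdown. The CD133 knockdown lay above all other libraries, while the Glis3 knockdown libraries spread over the control range and beyond. Dvl1 rose to 138% of control in the CD133 knockdown (log2 fold change 0.44, SE 0.11, interval 0.17 to 0.70), at the edge of the threshold (limma adjusted p = 0.049999). That call was lost with median centring, quantile normalization and no variance trend, and without any single control or CD133 knockdown library (0.39 to 0.49). With Glis3 knocked down, Dvl1 was at 112% of control (0.14, interval -0.12 to 0.41, adjusted p = 0.418), and the sign turned without Glis3 knockdown library 1 (-0.026).

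Its paralogs did not pass: Dvl2 lay between 4.54 and 5.21 RPKM over the 6 libraries, and Dvl3 had 11.39 and 10.61 RPKM in control, 12.57 and 11.40 in the Glis3 knockdown, and 12.77 and 12.50 in the CD133 knockdown. Dvl1 held 47.2% of the summed Dishevelled level in control, 47.7% in the Glis3 knockdown and 52.2% in the CD133 knockdown, so it was the most abundant of the 3 in every group. Exons of Dvl1 share 36 bases with Tas1r3 on the opposite strand.

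Axin2 encodes a scaffold of the beta-catenin destruction complex and is a widely used readout of Wnt activity, because beta-catenin induces it directly. The gene (ENSMUSG00000000142.15) lies on the plus strand of chromosome 11, bases 108920349 to 108950783. Axin2 stood at 18.98 and 21.07 RPKM in control, 26.75 and 25.83 in the Glis3 knockdown, and 33.66 and 25.89 in the CD133 knockdown. Every knockdown library lay above both controls, and the highest was CD133 knockdown library 1. Axin2 rose to 149% of control in the CD133 knockdown (log2 fold change 0.54, SE 0.12, interval 0.26 to 0.82, limma adjusted p = 0.0346). Glis3 knockdown colonies had 131% of the control level (0.38, interval 0.10 to 0.66, adjusted p = 0.0825), but with only the Glis3 knockdown and control in the fit, or without either CD133 knockdown library, it passed (adjusted p = 0.0323). The CD133 value was 0.36 without CD133 knockdown library 1 and 0.72 without library 3, and the call was lost without the former and without control library 1 (0.47) or control library 3 (0.61).

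Axin1, the paralog that is expressed without need of a Wnt signal, had 24.4 RPKM in control, 24.3 in the Glis3 knockdown and 24.6 in the CD133 knockdown. Its log2 fold changes were -0.003 and 0.01 (adjusted p = 0.984 and 0.928). Axin2 was thus 44.0% and 46.2% of the summed Axin level in control, 51.6% and 52.3% in the Glis3 knockdown, and 56.8% and 52.4% in the CD133 knockdown. Axin1 was the higher of the pair in both control libraries, and Axin2 in all 4 knockdown libraries. Axin2 shares 209 exon bases with the predicted locus Gm11670 on the opposite strand.

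**Figure D3:**
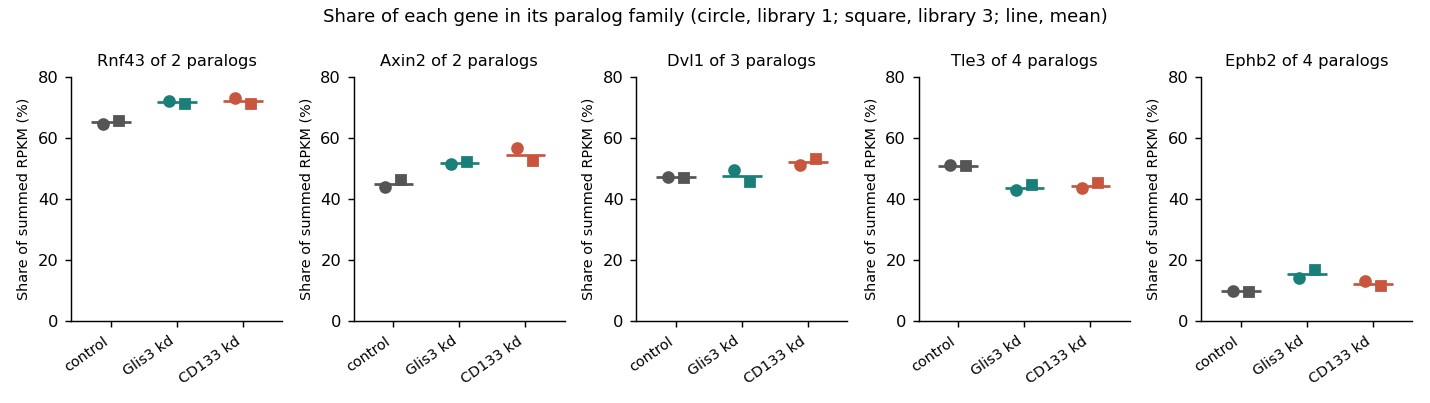
Share of Rnf43, Axin2, Dvl1, Tle3 and Ephb2 in the summed RPKM of their paralogs in the table, per library (percent). Axin2 goes from a mean of 45.1% in control to 51.9% and 54.6% in the knockdowns, and Tle3 from 51.0% to 43.8% and 44.4%.

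Sequence upstream of the start site is shown for Axin2 and Ephb2, the pair of target genes in the set whose window lies outside the annotated gene. RefSeq promoter windows (GRCm38.p6) were matched for Axin2, Rnf43, Ephb2, Dvl1 and Tle3, 5 of the 7 genes, and not for Porcn and Notum. The 250 bases before the start were searched on both strands for CTTTGAT, a TCF/LEF motif, and for TGGGGGG, a core of motifs bound by Gli-similar zinc fingers such as Glis3; the motifs do not overlap. CTTTGAT was in none of the 6 windows of these 5 genes (Rnf43 has 2) and in 3.21% of all 32851 windows. TGGGGGG was in 1, that of Ephb2, and in 7.67% of all windows. The Ephb2 match reads CCCCCCA on the gene's strand, shown in capitals, and starts 43 bases before the transcription start. GC content was 69.2% in the Axin2 window and 68.4% in that of Ephb2, beside a median of 52.4% over all windows.
Axin2 (chr11:108920099-108920348, plus strand): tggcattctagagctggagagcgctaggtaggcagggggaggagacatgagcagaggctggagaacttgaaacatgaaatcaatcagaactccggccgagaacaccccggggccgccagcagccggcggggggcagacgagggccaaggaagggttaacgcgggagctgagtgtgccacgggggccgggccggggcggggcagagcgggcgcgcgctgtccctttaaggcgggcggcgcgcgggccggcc
Ephb2 (chr4:136836013-136836262, minus strand): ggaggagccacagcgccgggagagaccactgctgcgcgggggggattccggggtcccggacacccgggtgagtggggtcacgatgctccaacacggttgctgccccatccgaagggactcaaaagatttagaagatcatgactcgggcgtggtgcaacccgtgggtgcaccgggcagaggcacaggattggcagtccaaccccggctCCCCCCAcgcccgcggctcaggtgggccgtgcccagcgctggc

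Tle3 encodes a Groucho-family corepressor that sits on TCF factors in the absence of beta-catenin. The gene (ENSMUSG00000032280.16) lies on the plus strand of chromosome 9, bases 61372366 to 61418497. Tle3 stood at 20.61 and 18.92 RPKM in control, 15.84 and 15.05 in the Glis3 knockdown, and 17.01 and 18.48 in the CD133 knockdown. It was the 1 gene of the 7 with all knockdown libraries below both controls, and the Glis3 knockdown was lowest. Tle3 fell to 78.1% of control in the Glis3 knockdown (log2 fold change -0.34, SE 0.068, interval -0.50 to -0.17, limma adjusted p = 0.0273). CD133 knockdown colonies had 89.8% of the control level (-0.15, interval -0.31 to 0.02, adjusted p = 0.197). The Glis3 call was lost without control library 1 (-0.28), control library 3 (-0.39) and Glis3 knockdown library 3 (-0.30).

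The other Groucho genes did not pass in either comparison. Tle1 was at 8.28 RPKM in control, 6.95 in the Glis3 knockdown and 7.48 in the CD133 knockdown, Tle4 at 8.32, 9.64 and 10.2, and Tle2 at 2.39, 3.26 and 4.56. Tle3 made up 51.2% and 50.8% of the summed level of Tle1 to Tle4 in control, 43.0% and 44.6% in the Glis3 knockdown, and 43.6% and 45.2% in the CD133 knockdown. It remained the most abundant of the 4 in every library, and its share was lower in each knockdown library than in each control library. Among the other 23 nuclear partners of beta-catenin tested, 0 passed in limma in either comparison; Tle4 (0.26, adjusted p = 0.0581) and the TCF factor Tcf7l2 (0.26, adjusted p = 0.0755) had the smallest p in the CD133 knockdown.

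Ephb2 encodes a receptor tyrosine kinase for B-type ephrins and is a beta-catenin target that positions cells along the intestinal crypt. The gene (ENSMUSG00000028664.14) lies on the minus strand of chromosome 4, bases 136647539 to 136835988. Ephb2 stood at 7.25 and 7.10 RPKM in control, 9.44 and 10.58 in the Glis3 knockdown, and 9.26 and 8.06 in the CD133 knockdown. Controls were lowest and the Glis3 knockdown highest, with no overlap between groups. Ephb2 rose to 140% of control in the Glis3 knockdown (log2 fold change 0.43, SE 0.083, interval 0.23 to 0.62, limma adjusted p = 0.0238). CD133 knockdown colonies had 121% of the control level (0.24, interval 0.04 to 0.44, adjusted p = 0.106). The Glis3 call was lost without control library 1 (0.44), control library 3 (0.41) and Glis3 knockdown library 3 (0.35).

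Its close relatives did not rise in the Glis3 knockdown. Ephb4, the most abundant of the family, fell from a control mean of 40.5 RPKM to 33.4 (-0.27 on the log2 scale, adjusted p = 0.0274). Ephb6 was at 14.0 RPKM in control and 10.1 in the Glis3 knockdown (-0.45, adjusted p = 0.0827), and Ephb3, another crypt target, at 11.3 and 10.9 (-0.05, adjusted p = 0.669). Ephb2 accordingly made up 9.98% and 9.70% of the summed Ephb level in control, 14.2% and 17.0% in the Glis3 knockdown, and 13.3% and 11.5% in the CD133 knockdown. Among ephrin genes, Efna1 fell in the Glis3 knockdown from 18.7 to 12.6 RPKM (-0.53, adjusted p = 0.0349), and the B-type ligand genes Efnb1 and Efnb2 did not pass. The Glis3 knockdown calls of Ephb4 and Efna1 were kept only without Glis3 knockdown library 1. No Eph or ephrin gene passed in limma in the CD133 knockdown, where Efna3 (0.45, adjusted p = 0.0629) had the smallest p.

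Between the knockdowns, 0 of the 7 genes passed in limma, where 4.06% of all genes did (1.61% higher and 2.46% lower). Unadjusted limma p was under 0.05 for 3 of the 7, a count with no share of all genes worked out beside it. Those were Porcn (Glis3 minus CD133 knockdown -0.25, interval -0.44 to -0.06, adjusted p = 0.140), Dvl1 (-0.29, interval -0.55 to -0.03, adjusted p = 0.187) and Tle3 (-0.19, interval -0.35 to -0.03, adjusted p = 0.175). The interval for Notum ran from -0.99 to 0.06, for Axin2 from -0.44 to 0.12, for Rnf43 from -0.29 to 0.06 and for Ephb2 from -0.01 to 0.39. A gene that passed in 1 knockdown alone is thus not shown to differ between them. Without Glis3 knockdown library 1, Dvl1 passed (-0.46, adjusted p = 0.0247), and without CD133 knockdown library 1 the Axin2 value turned to 0.021.

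Without a test, separation of the groups was common in the table. With Glis3 knocked down 5 of the 7 genes lay above both controls and 1 below, where 38.5% of all genes lay above and 21.1% below. For the CD133 knockdown these were 6 above and 1 below, where 40.3% and 22.1% of all genes did. Between the knockdowns, Ephb2 was higher in both Glis3 knockdown libraries, and Porcn, Dvl1 and Tle3 were lower, where 27.9% of all genes were higher and 26.8% lower. An exact permutation test of 2 libraries against 2 cannot give a p below 0.333.

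**Figure D4:**
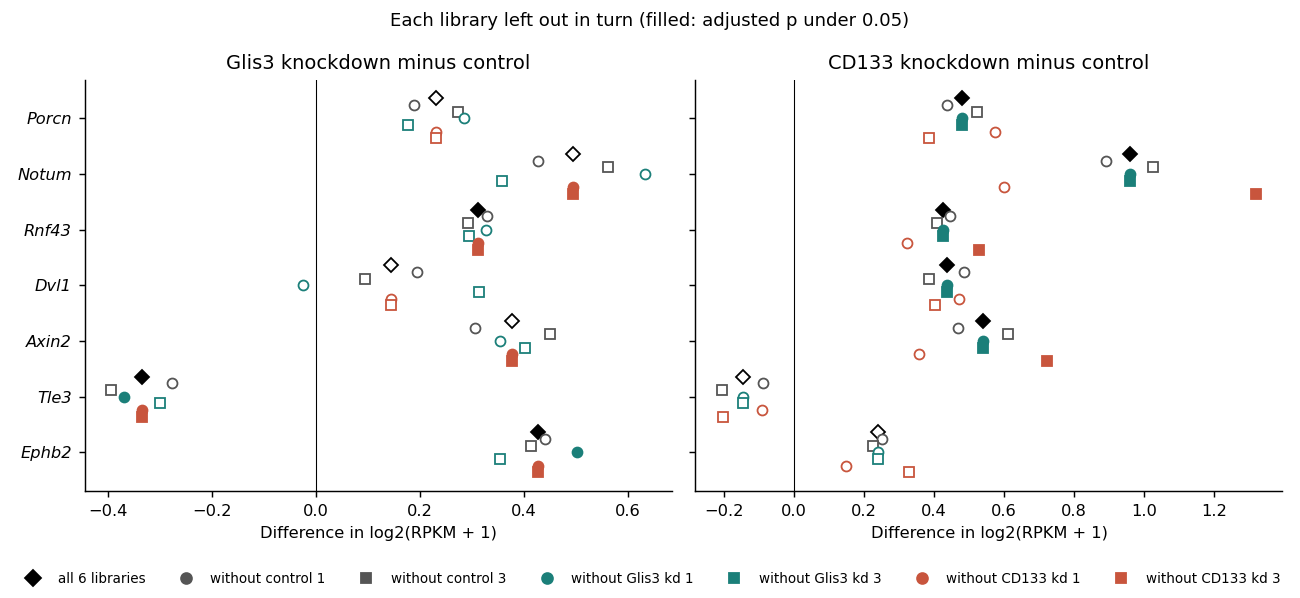
Difference of each gene from control with all 6 libraries (diamond) and with each library left out in turn (circle, library 1; square, library 3; colour, group left out; kd, knockdown), filled where the adjusted p was under 0.05. No gene is filled without control library 1 or 3, and the value of Notum in the CD133 knockdown runs from 0.60 to 1.32.

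Of 118 other genes tested from lists of Wnt secretion, ligands, inhibitors, R-spondin receptors, Frizzled receptors, destruction complex, nuclear partners, targets and Eph signalling, 2 rose and 11 fell in the Glis3 knockdown (11.02%, beside 12.9% of all genes), and 5 rose and 6 fell in the CD133 knockdown (9.32%, beside 11.8%). In the main fit this balance of directions in the Glis3 knockdown was opposite to that of all genes, of which 8.39% were higher and 4.53% lower. With median centring more of all genes were lower than higher, and with quantile normalization the directions were nearly even. The 118 genes were not counted with either scaling, so whether the contrast holds there was not tested. The balance among the 118 genes was not tested. With single libraries left out, the counts past the threshold rose in some fits and fell in others. They rose without Glis3 knockdown library 1 in both comparisons, and without Glis3 knockdown library 3 in the CD133 knockdown. These counts were 0 and 1 for the Glis3 knockdown without control library 1 and control library 3, 5 without Glis3 knockdown library 3, and 8 without either CD133 knockdown library. For the CD133 knockdown they were 0 without either control library or CD133 knockdown library 1, and 3 without CD133 knockdown library 3.

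Of 8 ligand genes tested, Wnt10a, Wnt16, Wnt7a and Wnt7b (4 genes) fell when Glis3 was knocked down, where 4.53% of all genes were lower, and none passed in the CD133 knockdown. Without control library 1 or control library 3, none of the 8 passed in the Glis3 knockdown. Their summed level was 155 and 159 RPKM in control, 130 and 122 in the Glis3 knockdown, and 160 and 155 in the CD133 knockdown. Ctnnb1, which encodes beta-catenin, also fell there, with 586.39 and 613.05 RPKM in control against 498.60 and 435.17 (-0.36, adjusted p = 0.0380). Dact2, a Dishevelled antagonist, and Frat1, an inhibitor of the kinase Gsk3, fell by 0.52 and 0.41 there, and Frat1 and Frat2 fell by 0.36 and 0.28 in the CD133 knockdown. Of 13 receptor genes, Fzd8 fell by 0.27 in the Glis3 knockdown, while in the CD133 knockdown the coreceptor gene Lrp5 rose by 0.30, and Ptk7 and Fzd5 fell by 0.29 and 0.27. The Glis3 knockdown calls of Wnt7b and Fzd8 were lost whichever library was left out, and that of Ctnnb1 was kept only without Glis3 knockdown library 1. Exons of Ctnnb1, Fzd5 and Wnt7b also overlap genes on the opposite strand.

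Other genes known as Wnt targets in various tissues passed in both directions in the CD133 knockdown. Besides the 4 target genes of the set, 2 of 21 tested rose in the Glis3 knockdown, where 8.39% of all genes were higher. They were the mitotic survivin gene Birc5 (0.81, limma adjusted p = 0.00925) and the cell-cycle gene Cdca7 (0.60, adjusted p = 0.0121), and the median of the 21 was 0.004. The target genes Apcdd1 and Ascl2 were under the filter on low values and not tested. Ascl2 was at 0.64 and 0.78 RPKM in control, 1.09 and 1.19 in the Glis3 knockdown, and 0.81 and 0.88 in the CD133 knockdown. With CD133 knocked down 4 rose, namely Cdh17 (an intestinal cadherin, 0.77), Birc5 (0.58), Cdca7 (0.41) and Sox9 (a ductal and progenitor factor, 0.41). There 2 fell, the ligand gene Bmp4 by 0.64 and the BMP coreceptor gene Rgmb by 0.34, and the median was -0.01. These are 6 of 21 past the threshold, where 8.16% of all genes were higher and 3.64% lower. Without control library 1, control library 3 or CD133 knockdown library 1 none of the 21 passed in the CD133 knockdown, and without CD133 knockdown library 3 Bmp4 alone did. Sp5, a direct beta-catenin target, was at 12.7 RPKM in control, 12.6 in the Glis3 knockdown and 11.4 in the CD133 knockdown (-0.01 and -0.14, adjusted p = 0.901 and 0.173), and Lgr5 was at -0.18 and -0.28 (adjusted p = 0.343 and 0.154). Sp5 and Lgr5 were singled out after their values were seen, as targets that did not follow Axin2. Ccnd1, picked likewise, moved in the direction of Axin2. It was at 141 RPKM in control, 180 in the Glis3 knockdown and 185 in the CD133 knockdown (0.34 and 0.39, limma adjusted p = 0.148 and 0.109).

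**Figure D5:**
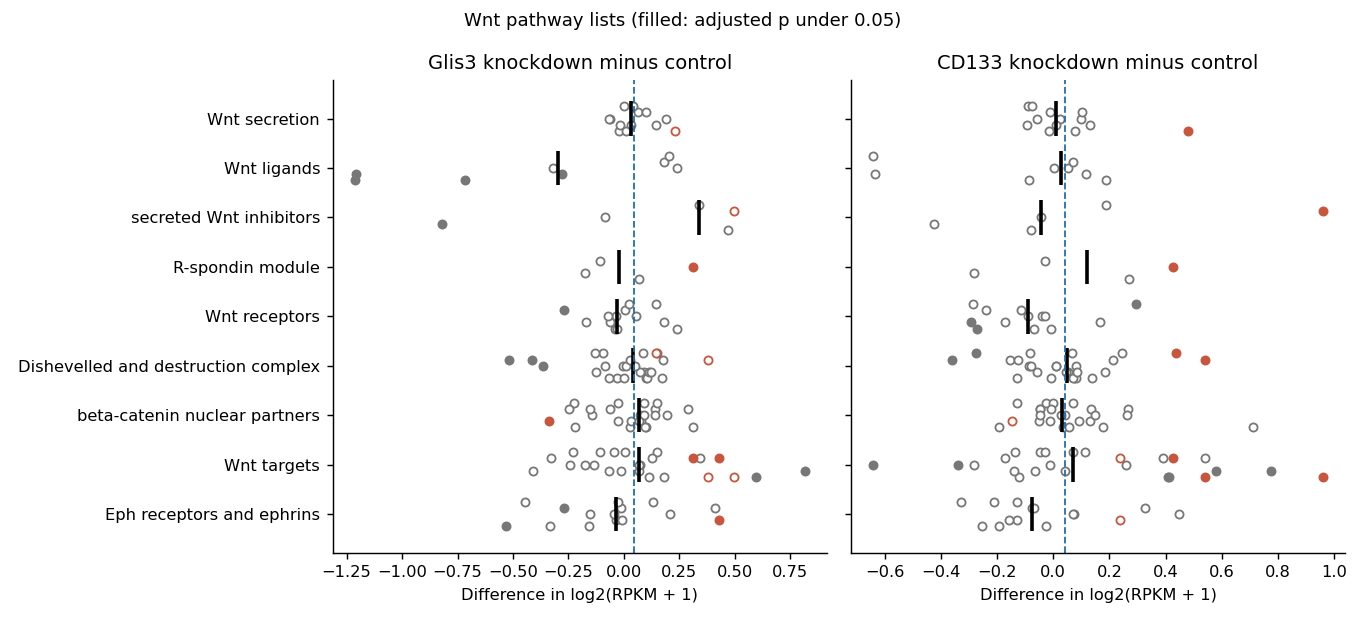
Difference from control of every tested gene of the Wnt lists (circles; orange-red, the 7 genes; filled, adjusted p under 0.05), with the median of each list (black bar) and of all genes tested (dashed line, 0.04). With the 7 genes included, list medians in the CD133 knockdown run from -0.09 (receptors) to 0.12 (R-spondin module), and in the Glis3 knockdown from -0.30 (ligands) to 0.34 (inhibitors).

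Some ductal markers passed in the CD133 knockdown, 4 higher and 1 lower of 11, where 8.16% of all genes were higher and 3.64% lower. In the Glis3 knockdown 0 of 11 passed with limma, where 12.9% of all genes did. There 5 had an unadjusted p under 0.05, a count with no share of all genes worked out beside it. Apart from Sox9, calls of these markers with single libraries left out are not reported here. The summed level of the 11 ductal markers was 9491 and 10074 RPKM in control, 8832 and 7468 in the Glis3 knockdown, and 7647 and 7964 in the CD133 knockdown. The largest part of that sum was Spp1 (osteopontin). It stood at 6490 and 6733 RPKM in control, 5212 and 4168 in the Glis3 knockdown, and 3127 and 4202 in the CD133 knockdown. Spp1 fell in the CD133 knockdown (-0.87, limma adjusted p = 0.0290), while Car2, Krt19, Krt8 and Sox9 rose. The 8 endocrine markers summed to 7.16 and 16 RPKM in control, 23.4 and 11.1 in the Glis3 knockdown, which overlaps control, and 6.04 and 2.64 in the CD133 knockdown, with the hormone gene Ppy listed at 0 in both CD133 knockdown libraries and in Glis3 knockdown library 1. Of these endocrine genes 3 were tested and none passed in either comparison with control. Among the untested, Pcsk1 (0.44 and 0.34 RPKM in control, 1.73 and 1.40 in the Glis3 knockdown) and Neurog3 (0.16 and 0.43, 1.10 and 0.84) lay above both controls there. Chgb and Ppy lay below both controls in the Glis3 knockdown, and Chga overlapped. In the CD133 knockdown, Sst, Ghrl, Chgb and Ppy lay below both controls and Pcsk1 above (0.55 and 0.51 RPKM). Gcg, Chga and Neurog3 overlapped control there. No share of genes under the filter was worked out beside these separations. The part of the ductal and endocrine markers in the differences of the 7 genes was not tested.

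The genes most alike in pattern were found by Pearson's r of log2(RPKM + 1) over the 6 libraries, among the 7877 genes that averaged 5 RPKM or more. For Notum they were Otud3 (a deubiquitinase, r = 0.999), Lgals2 (galectin 2, r = 0.991) and Ckmt1 (mitochondrial creatine kinase, r = 0.990). Lgals2 stood at 4.88 and 5.86 RPKM in control, 8.02 and 8.81 in the Glis3 knockdown, and 15.46 and 8.50 in the CD133 knockdown, and Ckmt1 at 11.44 and 12.15, 15.99 and 17.68, and 25.46 and 18.11. Both had the high value of CD133 knockdown library 1 that Notum had, and Otud3 had it in a narrower range, from 7.17 to 8.70 RPKM.

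For Axin2 the nearest were Ppm1g (a protein phosphatase), Smim15 and Aspscr1, with r from 0.991 to 0.993, and among the nearest to Rnf43 were Myo6 (myosin VI, r = 0.994) and Alg8 (a glucosyltransferase of protein glycosylation, r = 0.990). Dvl1 was nearest to Znrf1 (a ubiquitin ligase), Fam214b and Fam222a (r = 0.997 to 0.993), and Porcn to Avpi1, Wbscr22 and Pdrg1 (r = 0.990 to 0.984). Tle3 was nearest to Utp14a (a ribosome biogenesis factor), Kifc3 (a kinesin) and Nme4 (a mitochondrial nucleoside diphosphate kinase), with r from 0.988 to 0.996, and Kifc3 ran from 58.46 RPKM in control library 1 to 35.06 in Glis3 knockdown library 3. Among the nearest to Ephb2 were Magi3 (a membrane scaffold, r = 0.995) and Racgap1 (a cytokinesis regulator, r = 0.994). Between 135 (Porcn) and 429 (Ephb2) genes had an r above 0.9 to a given gene, and all points share their libraries and controls, so these are descriptions of 6 libraries.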

How the data were processed

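The authors deposited 1 table of RPKM values with 2 decimals and 1 column per library, mapped through the column name that each sample's description quotes. Libraries were stranded poly(A) libraries, per the labels' protocols. Per the submitters' processing notes, the tools were TopHat2, HTSeq and bcl2fastq 2.18.0.12, and the build was mm10. Not given in the sources used here are settings, gene annotation, library totals and whether counting used strand. The table holds genes that reached 1.00 RPKM in at least 1 library. Depth was estimated from low values of short GENCODE M21 genes, as the value in a range at which most of them were whole numbers of reads. There 59.6% to 62.6% of values were whole within 0.15 read. A depth fixed beforehand would give 30% by chance, and the best of a range gives more. Reads were thus not recovered and no count test was run.

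Values were analysed as log2(RPKM + 1) for the 10829 genes that averaged 1 RPKM or more, with limma 3.58.1 in R 4.3.3 (3 group means, empirical Bayes with trend, 3 residual and 3.69 prior degrees of freedom, two-sided, Benjamini-Hochberg adjustment over all genes tested, threshold 0.05). Fold changes on this scale understate those of low genes; percent of control is the ratio of mean RPKM. The fit was tested on simulated data. Named genes were the 7 genes, their paralogs, up to 4 passing genes per direction and list (or the 2 with the smallest p), and the 3 nearest patterns per gene, some of which are not reported here. Members and lists were chosen with earlier results of these data known. Alternatives were pseudocounts of 0.1 and 5, no filter or a mean of 5 RPKM, median centring, quantile normalization, no variance trend, only the 2 groups compared, a replicate block and leaving out each library.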

Additional observations from a re-analysis of the deposited data

How the results depend on the processing

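With 2 libraries per group, a group left with 1 library is assumed to vary like the others. Leaving out each library in turn gave 0 to 5 of the 7 genes past the threshold in the Glis3 knockdown, 0 to 5 in the CD133 knockdown and 0 to 1 between the knockdowns, and 21 to 1334, 0 to 1657 and 25 to 743 of all genes. Among the 7 genes, Glis3 and Prom1, single values stayed on 1 side of 0 except Dvl1 in the Glis3 knockdown (-0.026 to 0.31), Glis3 in the CD133 knockdown (-0.087 to 0.014) and Axin2 between the knockdowns (-0.35 to 0.021). With only the 2 groups compared in the fit, 5 of the 7 genes passed in the Glis3 knockdown, and 58 of all genes between the knockdowns. Quantile normalization left 3 of the 7 in the CD133 knockdown (Notum and Dvl1 were lost), and a minimum mean of 5 RPKM left 913 of all genes in the Glis3 knockdown, with fewer genes tested. For the rest, the cause was not tested.

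The replicate numbers 1 and 3 share no stated origin. Deviations of same-numbered libraries from their group means correlated over genes at -0.37 (control and Glis3 knockdown), -0.43 (control and CD133 knockdown) and 0.03 (both knockdowns). Same-numbered libraries thus did not deviate alike. Why those of control ran against those of each knockdown was not tested. With the replicate number as a block, 0 of the 7 genes and 608 of all genes passed in the Glis3 knockdown, 1 (Porcn) and 335 in the CD133 knockdown, and 0 and 79 between the knockdowns. With the control numbers crossed in the replicate block, chosen after seeing the data, the counts were 4 and 1497, and 4 and 1456.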
